A study of Ovis aries with 12 samples.

Results

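Respiratory complex I is described here through the genes whose names start with NDUF, the nuclear genes for its subunits and for the factors that assemble it. Every gene with a single annotated symbol of that form was taken, with the brightest of its probe sets, whatever its response. This gave 42 genes of the 9155 that the array names by a single symbol, from 57 probe sets. The samples were taken from a loin muscle, longissimus dorsi, in 12 lambs. There were 6 callipyge lambs, labelled +/CLPG, and 6 normal wild-type lambs, labelled +/+, with 2 of each genotype at 10, 20 and 30 days of age. All lambs nursed until shortly before death, and no treatment other than genotype and age separated the groups. The callipyge trait enlarges the muscles of the loin and hindquarters in the weeks after birth, and the series asks what changes as it sets in. Each lamb gave 1 bovine expression array read with sheep RNA, so a weak signal can also mean a poor match of the probes. All 42 gene symbols are also symbols of annotated sheep genes. The assembly factors NDUFAF1, NDUFAF2, NDUFAF4 and NDUFAF7 were not analysed here.

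Complex I takes electrons from NADH, passes them over a flavin and a chain of iron-sulfur clusters to ubiquinone, and pumps protons across the inner mitochondrial membrane. A hydrophilic arm in the matrix holds the redox centres, and a membrane arm does the pumping. Core subunits carry out the catalysis, accessory subunits surround them, and assembly factors build the enzyme and then leave it. In muscle the enzyme feeds on NADH from the citric acid cycle and from fatty acid oxidation, and oxidative fibres hold more of it than glycolytic ones.

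Values are log2 of the scaled signal plus 16, and differences are on that scale unless a fold is given. The trimmed mean signals of the arrays before scaling ran from 55.7 to 105.7. At 10 days they were 74.6 and 55.7 in callipyge and 75.2 and 78.5 in normal lambs. At 20 days they were 60.3 and 80.5 in callipyge and 94.3 and 80.5 in normal lambs. At 30 days they were 81.6 and 86.5 in callipyge and 105.7 and 76.4 in normal lambs. They were thus not independent of age and genotype, and scaling bears on both comparisons. The 30 day lambs numbered 2 of both genotypes had the lowest mean correlations with the other arrays, 0.953 in callipyge and 0.951 in normal. The change from 10 to 30 days, the genotype difference at 30 days and the interaction are therefore also given without both. The change from 20 to 30 days is not. The labelled tissue was checked with 10 marker genes of skeletal muscle, whose mean levels ran from 12.01 for ACTN3 to 13.50 for CKM. The NDUF genes were bright too. Their median level was 10.49, and 36 of 42 lay in the top 10% of all probe sets. The brightest was NDUFA4 at 12.51. The dimmest was NDUFB5, a membrane arm subunit, whose lambs ran from 4.89 to 5.87. It fell under the brightness filter, which asks for a mean of at least 5.25 over all 12 arrays, so 41 of 42 genes were tested. The levels of different genes come from different probes and cannot be ranked as amounts of RNA.

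**Figure D1:**
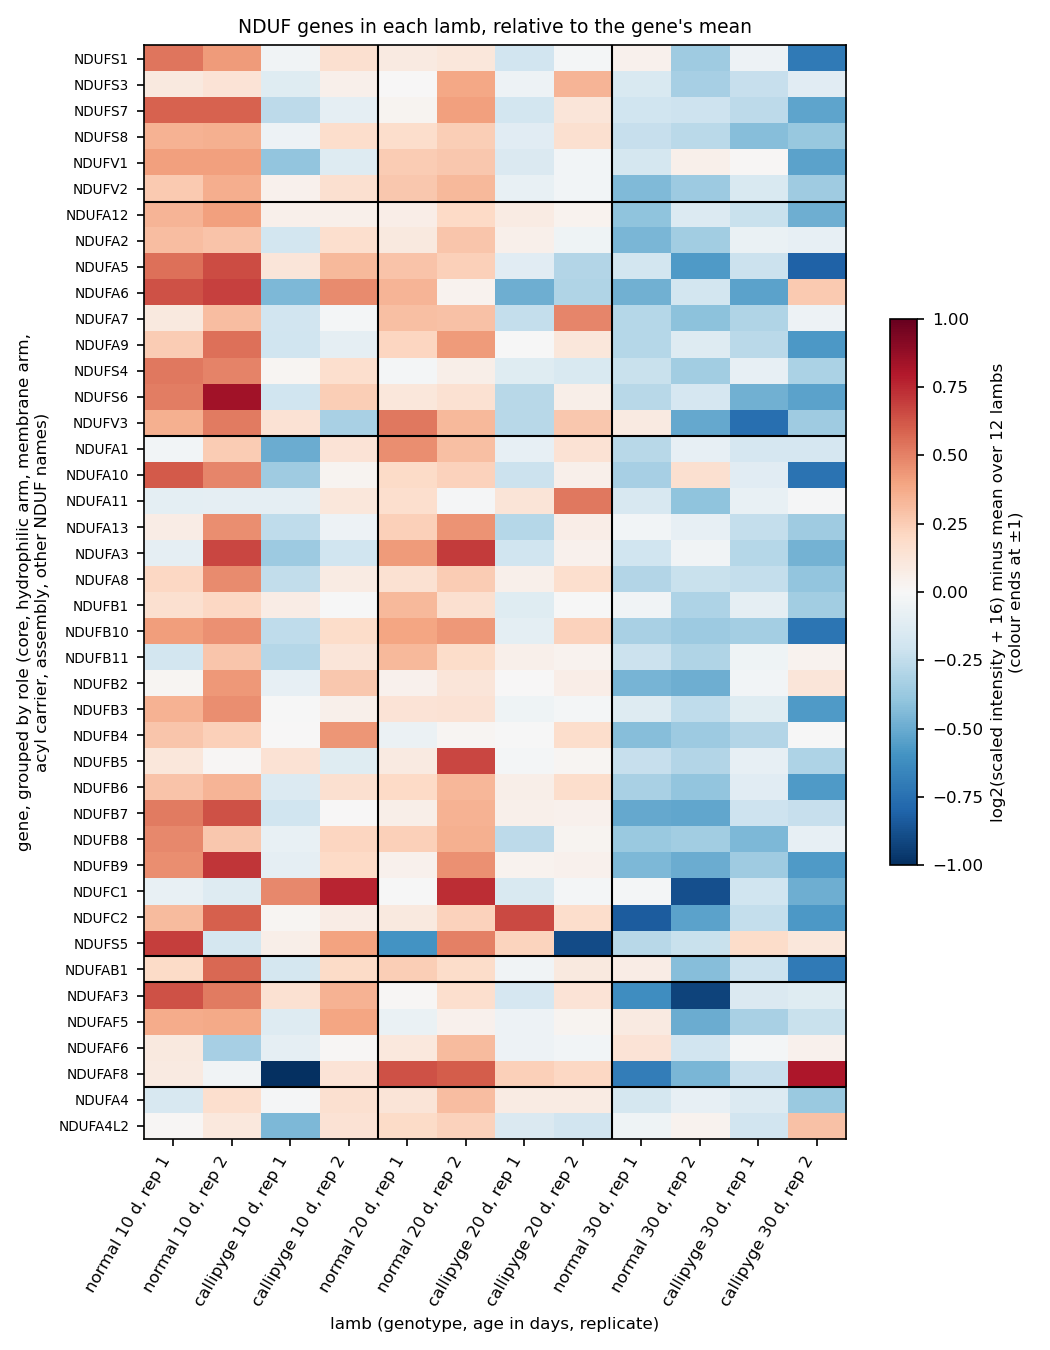
Level of each of the 42 NDUF genes (rows, grouped by role) in each of the 12 lambs (columns, grouped by age), as log2(scaled intensity + 16) minus the gene's mean over the lambs. The columns of the normal 10 day lambs are mostly above the mean (red) and the 4 columns at 30 days mostly below it (blue).

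From the youngest to the oldest lambs, genes from every main part of the enzyme fell. From 10 to 30 days, averaged over genotypes, 13 of 41 fell and none rose at an adjusted p of 0.05 (limma, Benjamini-Hochberg over 12008 probe sets). Over all tested probe sets 1.26% fell and 0.575% rose, 1.83% in all. Of the 41 genes, 38 lay below 0, with a median of -0.49 and a range from -0.87 to 0.14, where all probe sets had a median of 0.00 and 49.6% lay below 0. Bright probe sets were called more often: of the 2402 in the top 10% of brightness, a set chosen after the data were seen, 4.7% fell, and their median was -0.03. The 4 lambs at 30 days all lay below the 4 at 10 days for 14 of 41 genes, against 4.31% of all probe sets, and above them for 0 (3.53%). In whole muscle, fewer cells of a type and less RNA per cell cannot be told apart.

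The largest of these changes was in NDUFAF3, which works early in assembly on the part of the hydrophilic arm that binds ubiquinone. At 10 days it stood at 9.66 and 9.54 in the normal and 9.18 and 9.37 in the callipyge lambs. At 30 days it stood at 8.40 and 8.10 in the normal and 8.87 and 8.90 in the callipyge lambs. All lambs at 30 days lay below all lambs at 10 days, and the normal 30 day lambs were the lowest. NDUFAF3 fell by 0.87 ± 0.13 (SE), or 1.82-fold (4 lambs at each age, limma adjusted p = 0.0115). A dimmer tested probe set of this gene gave -0.45 (adjusted p = 0.172), and the mean of its probe sets did not pass.

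In the catalytic core, 2 of 6 tested genes fell from 10 to 30 days and all 6 lay below 0, with a median of -0.52. NDUFV2, the iron-sulfur protein beside the NADH site, stood at 11.76 and 11.86 in the normal and 11.54 and 11.66 in the callipyge lambs at 10 days. By 30 days its levels were 11.05 and 11.13 in the normal and 11.34 and 11.14 in the callipyge lambs. The ages did not overlap, and NDUFV2 fell by 0.54 ± 0.09 (adjusted p = 0.0158). NDUFS8, which carries iron-sulfur clusters toward ubiquinone, fell by 0.53 (adjusted p = 0.0318). NDUFS1 at -0.54 (adjusted p = 0.0824), NDUFS7 at -0.50 (0.0536), NDUFS3 at -0.25 and NDUFV1 at -0.24 did not pass. A dimmer tested probe set of NDUFS1 gave -0.02 (limma adjusted p = 0.969).

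Of the 9 accessory subunits of the hydrophilic arm, 4 fell from 10 to 30 days and all 9 lay below 0 (median -0.55). NDUFA5, a subunit beside the ubiquinone module, stood at 10.65 and 10.75 in the normal and 10.22 and 10.42 in the callipyge lambs at 10 days. At 30 days it stood at 9.92 and 9.53 in the normal and 9.89 and 9.29 in the callipyge lambs. It fell by 0.85 ± 0.14, or 1.81-fold (adjusted p = 0.0158). Its other probe sets gave smaller differences, -0.15 (adjusted p = 0.634) in one nearly as bright and -0.51 (0.162) in a dim one. NDUFS4, a subunit needed to hold the NADH-oxidizing module in place, stood at 11.51 and 11.47 in the normal and 11.00 and 11.15 in the callipyge lambs at 10 days. It stood at 10.76 and 10.63 in the normal and 10.90 and 10.67 in the callipyge lambs at 30 days. NDUFS4 fell by 0.55 ± 0.10 (adjusted p = 0.0183). NDUFA12, a paralog of the assembly factor NDUFAF2, stood at 12.52 and 12.59 in the normal and 12.23 and 12.23 in the callipyge lambs at 10 days. At 30 days it stood at 11.77 and 12.05 in the normal and 11.96 and 11.70 in the callipyge lambs, and it fell by 0.52 ± 0.10 (adjusted p = 0.0183). For these 3 genes no lamb at 30 days reached the level of any lamb at 10 days. NDUFS6, a zinc-binding subunit of the same arm, fell by 0.72 (adjusted p = 0.0256).

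In the membrane arm 6 of 19 tested accessory genes fell from 10 to 30 days and all 19 lay below 0 (median -0.45). NDUFB9, which docks an acyl carrier protein on this arm, stood at 10.98 and 11.23 in the normal and 10.42 and 10.71 in the callipyge lambs at 10 days. The 30 day levels were 10.06 and 10.01 in the normal and 10.16 and 9.95 in the callipyge lambs. The ages did not overlap, and NDUFB9 fell by 0.79 ± 0.13, or 1.73-fold (adjusted p = 0.0129). NDUFC2 stood at 10.62 and 10.90 in the normal and 10.33 and 10.38 in the callipyge lambs at 10 days. At 30 days it stood at 9.47 and 9.77 in the normal and 10.06 and 9.73 in the callipyge lambs, again without overlap, and it fell by 0.80 ± 0.14 (adjusted p = 0.0174). NDUFB7, a disulfide-bonded subunit on the intermembrane side, stood at 10.35 and 10.47 in the normal and 9.63 and 9.83 in the callipyge lambs at 10 days. By 30 days its levels were 9.32 and 9.31 in the normal and 9.62 and 9.60 in the callipyge lambs. NDUFB7 fell by 0.61 ± 0.11 (adjusted p = 0.0203), and the callipyge lambs of 10 and 30 days were nearly level. The others that fell were NDUFB10 at -0.64, NDUFB8 at -0.54 and NDUFB3 at -0.48, with adjusted p of 0.0278, 0.0386 and 0.0381. Just outside the threshold lay NDUFB4 at -0.51 and NDUFB6 at -0.51, both with an adjusted p of 0.0517. NDUFB2 was mixed: its brighter probe set stood at -0.37 and its dimmer one at 0.77, and neither passed.

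Of the 7 remaining tested genes, 1 passed. NDUFAB1, the mitochondrial acyl carrier protein, which also serves fatty acid synthesis, stood at -0.51 (adjusted p = 0.110). Of the 4 assembly factors NDUFAF3 alone fell. NDUFAF5, which modifies NDUFS7 during assembly, stood at -0.49, NDUFAF6 at 0.07 and NDUFAF8, the partner of NDUFAF5, at 0.14, with adjusted p of 0.162, 0.868 and 0.861. A pair of genes carry NDUF names without being complex I subunits. NDUFA4, now assigned to complex IV, stood at -0.23 and its hypoxia-induced paralog NDUFA4L2 at 0.07, and neither passed. Dimmer tested probe sets gave -0.22 for NDUFA4L2 and -0.50 for NDUFAF5 (limma adjusted p of 0.724 and 0.164).

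**Figure D2:**
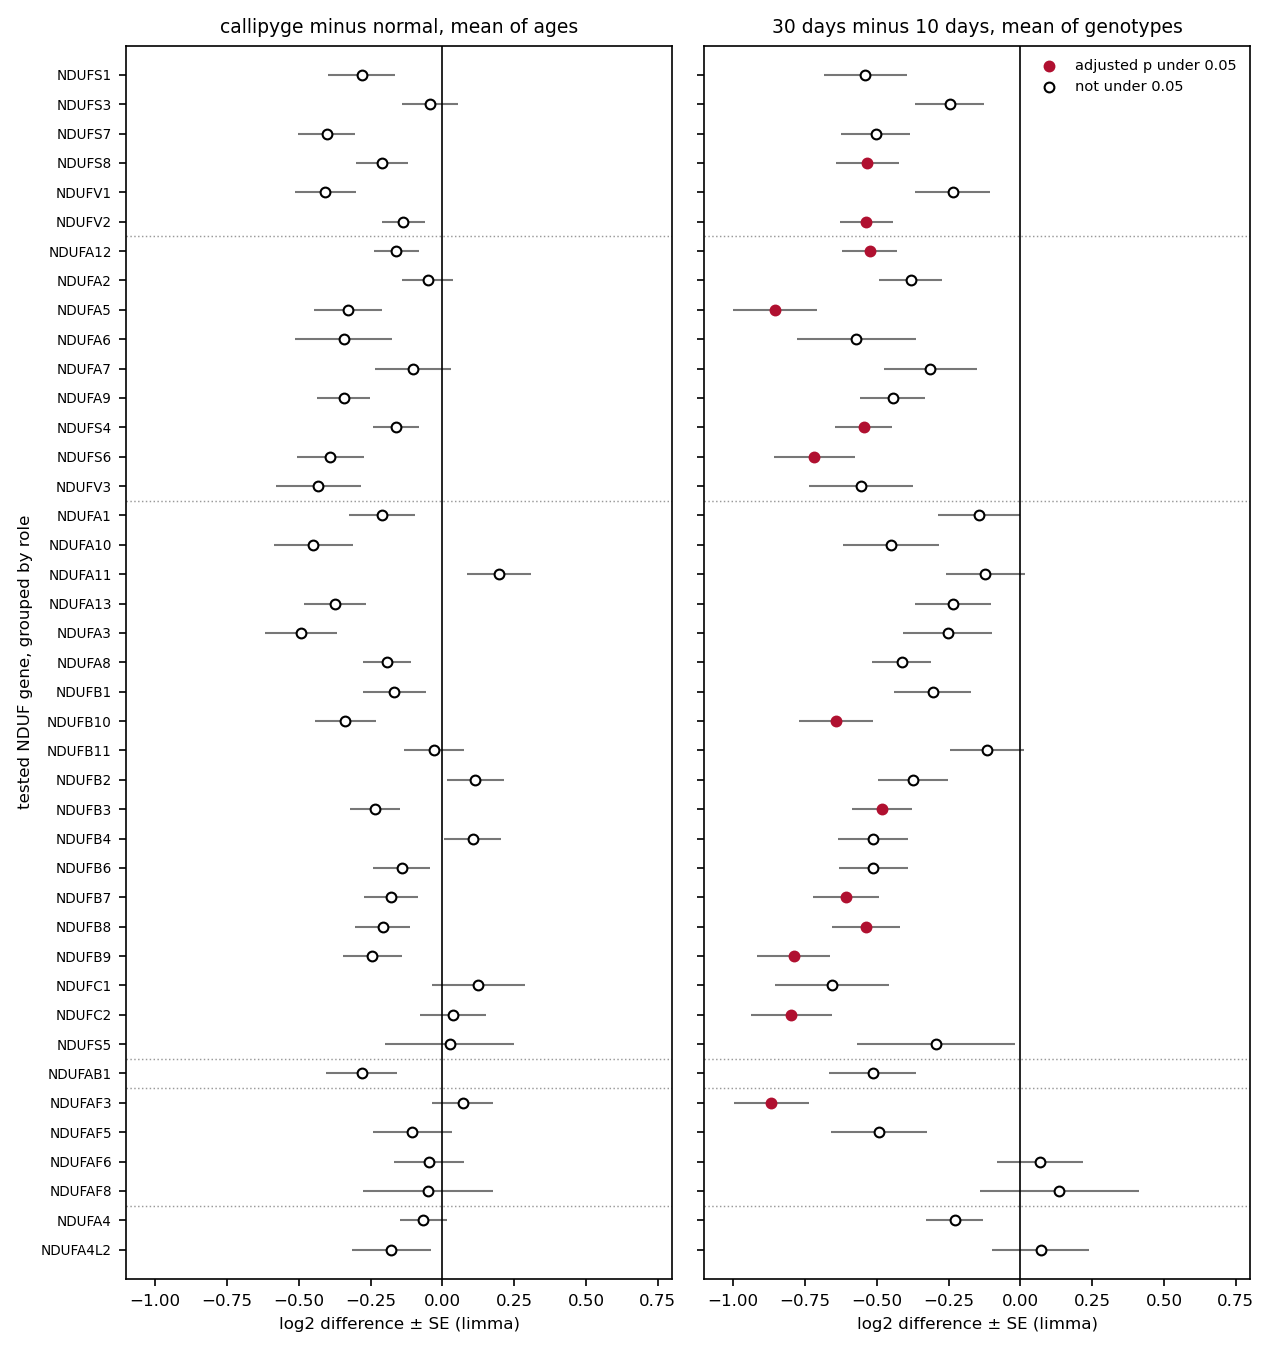
Log2 difference ± SE of the 41 tested NDUF genes (rows, grouped by role) between genotypes (left, 6 lambs against 6) and between 30 and 10 days (right, 4 against 4), with filled points for an adjusted p under 0.05 in limma. On the right 38 points lie left of 0 and 13 are filled; on the left 34 lie left of 0 and none is filled.

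The calls from 10 to 30 days depended on scaling, on the test and on single lambs. With no scaling of the arrays 0 of 41 passed, 29 lay below 0 and the median was -0.20, beside a median of 0.24 over all probe sets; with each array centred on its median, 1 passed (NDUFC2), with medians of -0.36 and 0.08. Relative to all probe sets the median was -0.49 as reported and -0.45 under both of these. Ordinary least squares called 0, and 8 passed when dim probe sets were kept in. Among the 10 day lambs, leaving out callipyge replicate 2 left 0 that fell, callipyge replicate 1 left 5, normal replicate 1 left 1 and normal replicate 2 left 2. Among the 30 day lambs, leaving out callipyge replicate 2 left 4 and normal replicate 2 left 6, while 15 fell without callipyge replicate 1 and 14 without normal replicate 1. Without both 30 day lambs numbered 2 it was 0, where 1 of all probe sets passed, and 40 of 41 genes lay below 0 with a median of -0.39. With 1 lamb left out, at least 37 of 41 lay below 0 each time, and the median ran from -0.53 to -0.39. Except without both 30 day lambs numbered 2, the calls over all probe sets under these settings are not given here. Fewer NDUF calls under a setting therefore cannot be told from fewer calls everywhere.

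The medians placed most of this difference after 20 days. From 20 to 30 days 39 of 41 genes lay below 0 (46% of all probe sets), with a median of -0.38 against 0.02 for all. None passed in limma, where 1 of 12008 probe sets did (0.00833%), but 30 of 41 had an unadjusted p under 0.05, against 8.99% of all probe sets and 18.2% of the brightest 10%. By ordinary least squares 0 passed as well. All 4 lambs at 30 days lay below all 4 at 20 days for 17 of 41 genes, against 2.73% of all probe sets, and above them for 0 (2.24%). From 10 to 20 days 23 lay below 0 and 18 above, with a median of -0.07, which was 0.074 with no scaling and 0.026 with median centring, and 53.4% of all probe sets lay below 0. No gene had all lambs of 20 days below those of 10 days (2.6% of all probe sets) and 1, NDUFAF8, had them all above (2.17%). In limma 0 passed, as did 0% of all probe sets, and ordinary least squares called 0. An unadjusted limma p under 0.05 was found for 5, against 8.42% of all probe sets and 10.1% of the brightest 10%. The 3 changes with age share their lambs and are not independent of each other. How far the change from 20 to 30 days rests on the 30 day lambs numbered 2 is not given here.

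NDUFC2 had the smallest p from 20 to 30 days. At 20 days it stood at 10.40 and 10.54 in the normal and 10.96 and 10.48 in the callipyge lambs, above every lamb at 30 days, and its difference was -0.84 ± 0.14 (adjusted p = 0.0871). NDUFB10, a membrane arm subunit, stood at 11.50 and 11.54 in the normal and 11.01 and 11.34 in the callipyge lambs at 20 days. The 30 day levels were 10.78 and 10.74 in the normal and 10.77 and 10.37 in the callipyge lambs. Its difference was -0.68 ± 0.13 (adjusted p = 0.110), and callipyge 30 day replicate 2 was the lowest lamb. NDUFV2 at -0.45 ± 0.09 and NDUFB9 at -0.61 ± 0.13 had the same adjusted p. The 20 day levels of NDUFV2 were 11.77 and 11.82 in the normal and 11.42 and 11.47 in the callipyge lambs, and those of NDUFB9 were 10.55 and 10.97 in the normal and 10.55 and 10.55 in the callipyge lambs. For each gene these lay above all lambs of 30 days. From 10 to 20 days the smallest p was that of NDUFS4, at -0.36 ± 0.10 (adjusted p = 0.290), with 20 day levels of 10.96 and 11.04 in the normal and 10.86 and 10.83 in the callipyge lambs. NDUFAF3 stood at -0.37 (adjusted p = 0.463), with 20 day levels of 9.03 and 9.19 in the normal and 8.86 and 9.16 in the callipyge lambs. NDUFA5 stood at -0.38 (adjusted p = 0.492), with 10.39 and 10.34 in the normal and 9.99 and 9.81 in the callipyge lambs at 20 days. Other tested probe sets gave -0.33 for NDUFAF3 and -0.03 and -0.29 for NDUFA5. NDUFAF8 went the other way at 0.70 ± 0.28 (adjusted p = 0.519). Its 10 day levels were 7.31 and 7.18 in the normal and 5.91 and 7.35 in the callipyge lambs, all below the 20 day levels of 7.85 and 7.82 in the normal and 7.45 and 7.42 in the callipyge lambs, and 1 callipyge lamb of 10 days was far below the rest.

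**Figure D3:**
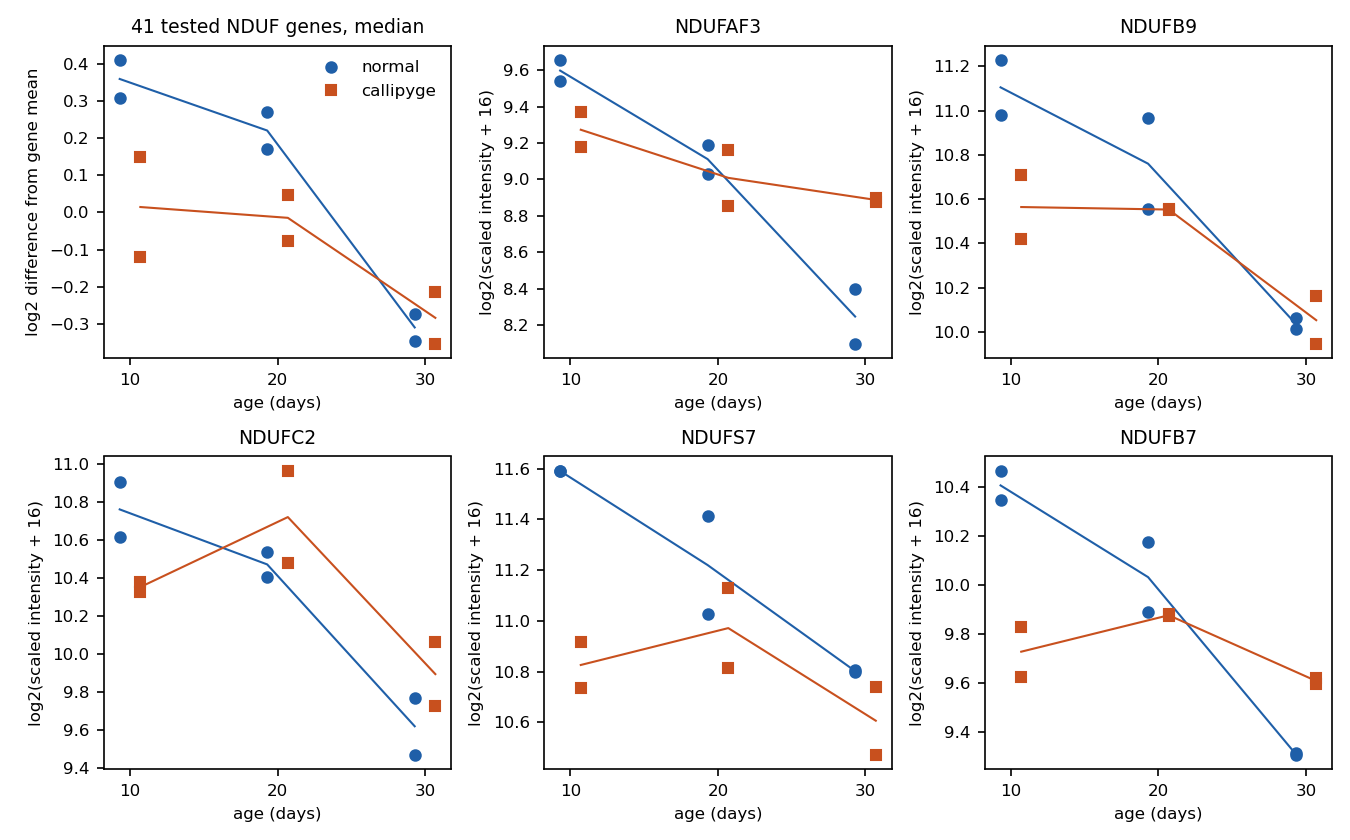
Level by age in days for the median of the 41 tested NDUF genes (log2 difference from each gene's mean over the lambs) and for 5 genes (log2 of scaled intensity + 16). Circles are normal and squares callipyge lambs, 1 point per lamb, and lines join the group means of 2 lambs. The median of the normal lambs went from 0.31 and 0.41 at 10 days to -0.27 and -0.35 at 30 days, and that of the callipyge lambs from -0.12 and 0.15 to -0.21 and -0.35.

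Between genotypes, averaged over the ages, most NDUF genes lay lower in callipyge muscle but none passed the test. Of 41 genes 34 lay below 0, against 52.5% of all probe sets, with a median of -0.18 against -0.01 and a range from -0.49 to 0.20. In limma 0 of 41 had an adjusted p under 0.05, where 0.883% of all probe sets did (0.566% rose and 0.316% fell); 17 had an unadjusted p under 0.05, against 11.8% of all probe sets and 20.9% of the brightest 10%. Ordinary least squares called 0. For 4 of 41 genes, NDUFA3, NDUFA13, NDUFS6 and NDUFS8, no callipyge lamb reached the lower normal lamb of its age, against 1.47% of all probe sets. The reverse, all 6 callipyge lambs above both normal lambs of their age, held for 0 genes, against 1.84% of all probe sets. With no scaling all 41 lay below 0, with a median of -0.38 beside -0.19 for all probe sets, and NDUFA3 passed.

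NDUFS7, the core subunit that hands electrons to ubiquinone, had the smallest p. In normal lambs it stood at 11.59 and 11.59 at 10 days, 11.03 and 11.41 at 20 days and 10.80 and 10.80 at 30 days. In callipyge lambs it stood at 10.74 and 10.92 at 10 days, 10.82 and 11.13 at 20 days and 10.74 and 10.47 at 30 days. The genotypes were apart at 10 days, overlapped at 20 days and came close at 30 days. The means were 10.80 ± 0.22 (SD, n = 6) in callipyge and 11.20 ± 0.37 in normal lambs, a difference of -0.40 ± 0.10 (limma adjusted p = 0.0933; two-sided exact permutation p = 0.0370, unadjusted).

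NDUFA3, a membrane arm subunit, stood at 10.56 and 11.32 at 10 days, 11.08 and 11.35 at 20 days and 10.46 and 10.62 at 30 days in normal lambs. In callipyge lambs it stood at 10.29 and 10.45 at 10 days, 10.46 and 10.69 at 20 days and 10.37 and 10.18 at 30 days. The genotypes did not overlap at any age, and the difference was -0.49 ± 0.13 (limma adjusted p = 0.104). Its two-sided exact permutation p was 0.00926, unadjusted, the smallest that 216 relabelings within age allow. NDUFA13, NDUFS6 and NDUFS8 had the same permutation p. It passed when normal 10 day replicate 1, the lowest normal lamb of that age, was left out (adjusted p = 0.0299), and it did not pass without any other single lamb. NDUFV1, which binds NADH and the flavin, stood at 11.16 and 11.16 at 10 days, 11.00 and 11.02 at 20 days and 10.57 and 10.80 at 30 days in normal lambs. In callipyge lambs it stood at 10.35 and 10.61 at 10 days, 10.60 and 10.72 at 20 days and 10.76 and 10.21 at 30 days, below the normal lambs except for 1 lamb at 30 days. The difference was -0.41 ± 0.11 (limma adjusted p = 0.110; exact permutation p = 0.0185), and it passed without callipyge 30 day replicate 1 (adjusted p = 0.0257). NDUFA9, which lies where the arms meet, stood at 11.38 and 11.68 at 10 days, 11.34 and 11.55 at 20 days and 10.84 and 10.99 at 30 days in normal lambs. In callipyge lambs it stood at 10.92 and 11.03 at 10 days, 11.12 and 11.24 at 20 days and 10.85 and 10.55 at 30 days, where 1 lamb lay between the normal lambs of 30 days. Its difference was -0.34 ± 0.09 (limma adjusted p = 0.125, exact permutation p = 0.0185). All these permutation p are unadjusted, and the genes were named for their limma p in the same 12 arrays, so they are not independent support.

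By role, all 6 core genes and all 9 accessory genes of the hydrophilic arm lay below 0 between genotypes, with medians of -0.25 and -0.33. In the core the values ran from -0.41 for NDUFV1 to -0.04 for NDUFS3. In the hydrophilic arm they ran from -0.43 for NDUFV3 to -0.05 for NDUFA2. The membrane arm was more spread, with 13 of 19 below 0 and a median of -0.18, from NDUFA3 at -0.49 to NDUFA11 at 0.20. The 4 assembly factors had a median of -0.05, from NDUFAF5 at -0.10 to NDUFAF3 at 0.07. Dimmer tested probe sets gave -0.01 for NDUFAF5 and -0.09 for NDUFAF3. NDUFAB1 stood at -0.28, NDUFA4 at -0.07 and NDUFA4L2 at -0.18. Whether the arms differed from each other was not tested.

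By age, the NDUF genes lay lower in callipyge lambs at 10 and 20 days and on both sides of 0 at 30 days. The median over 41 genes was -0.32 at 10 days, -0.21 at 20 days and 0.02 at 30 days, with 37, 37 and 19 genes below 0, where 51.4%, 48.6% and 53% of all probe sets were. The 30 day median was -0.08 with no scaling, -0.04 when callipyge 30 day replicate 1 was left out, -0.02 when normal 30 day replicate 2 was, and 0.01 without both lambs numbered 2. At 10 days, leaving out callipyge replicate 1 or 2 gave a median of -0.19 or -0.48. At no age did an NDUF gene pass in limma, and ordinary least squares called 0 at each age. In limma 16, 5 and 3 had an unadjusted p under 0.05, against 8.82%, 6.15% and 7.6% of all probe sets. Of the brightest 10%, 13.8%, 8.12% and 11.2% had such a p. Of all probe sets 0.0666%, 0.0333% and 0.05% passed, which at 10 days was 0.0416% that rose and 0.025% that fell. At 10 days the smallest p were those of NDUFS7 at -0.76 ± 0.17 (adjusted p = 0.143), NDUFB7 at -0.68, NDUFV1 at -0.68 and NDUFA9 at -0.55. At 20 days they were those of NDUFA3 at -0.64 ± 0.22 (adjusted p = 0.668), NDUFV2 at -0.35, NDUFB8 at -0.41 and NDUFA13 at -0.46. At 30 days the smallest p belonged to genes that lay higher in callipyge lambs, NDUFAF3 at 0.64 ± 0.18 (adjusted p = 0.406), NDUFB2 at 0.52, NDUFAF8 at 0.86 and NDUFA2 at 0.33. Each of these rests on 2 lambs against 2.

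The change from 10 to 30 days was then compared between the genotypes, which was called for none of the NDUF genes. In normal lambs 40 of 41 genes were lower at 30 than at 10 days, with a median of -0.61. In callipyge lambs 35 of 41 were, with a median of -0.28. The interaction, the genotype difference at 30 days minus that at 10 days, lay above 0 for 38 of 41 genes, while 51% of all probe sets lay below 0. Its median was 0.32 against -0.01 for all, and 0.45 without both 30 day lambs numbered 2. Leaving out callipyge replicate 1 of 10 days gave 0.20, and leaving out replicate 2 gave 0.50. In limma 0 of 41 passed, as did 0% of all probe sets, and ordinary least squares called 0. An unadjusted limma p under 0.05 was found for 9 of 41, against 5.11% of all probe sets and 6.62% of the brightest 10%. The smallest p was that of NDUFB7, at 0.98 ± 0.23 (adjusted p = 0.598). NDUFB7 stood at 10.35 and 10.47 at 10 days, 9.89 and 10.17 at 20 days and 9.32 and 9.31 at 30 days in normal lambs. In callipyge lambs it stood at 9.63 and 9.83 at 10 days, 9.88 and 9.87 at 20 days and 9.62 and 9.60 at 30 days, a far narrower range. NDUFAF3 followed at 0.96 ± 0.26 (adjusted p = 0.663), then NDUFA2 at 0.63 and NDUFB2 at 0.66.

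The lambs were also ranked gene by gene. Of the 41 genes, 9 had their highest value in normal 10 day replicate 1 and 16 in normal 10 day replicate 2. For all probe sets those lambs held the highest value in 11.0% and 8.74%. The lowest value lay in callipyge 30 day replicate 2 for 18 genes and in normal 30 day replicate 2 for 10. Over all probe sets those arrays held the lowest value in 12.6% and 10.1%. The median SD between lambs of a group was 0.18 for the tested NDUF genes, 0.24 for all tested probe sets and 0.15 for the 443 probe sets at least as bright as the median NDUF gene.

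Genes of complex I under other names were read beside them. Of 29 symbols listed, 9 were on the array with a single symbol, all of them factors for assembly or import, and no subunit encoded in mitochondrial DNA was among them. From 10 to 30 days 1 of 9 fell, TMEM126A, an assembly factor of the membrane arm, by 0.58 ± 0.11 (adjusted p = 0.0227), and 5 lay below 0 with a median of -0.20. COA1 stood at -0.40, ECSIT at -0.36, TMEM70 at -0.27 and CHCHD4 at -0.20. DMAC2 at 0.08, FOXRED1 at 0.05, ACAD9 at 0.03 and TMEM186 at 0.02 lay near 0. Between genotypes 0 of 9 passed and the median was -0.04. Of 13 listed regulators of mitochondrial genes on the array, 9 were bright enough to test, and none passed for age or genotype. PPARGC1A, a coactivator of mitochondrial biogenesis, stood at 0.41 ± 0.40 from 10 to 30 days and at 0.51 between genotypes (adjusted p of 0.676 and 0.586). PERM1, a muscle regulator of oxidative genes, stood at 0.54 ± 0.26 with age (adjusted p = 0.325), and NRF1 was too dim to test.

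The other respiratory complexes and the mitochondrial ribosome lay on the same side of 0. From 10 to 30 days 10 of 17 ATP synthase genes fell (median -0.45), 3 of 13 of complex IV (-0.32), 1 of 13 of complex III (-0.36), 0 of 7 of complex II (-0.22) and 5 of 63 of the mitochondrial ribosome (-0.30). None of these genes rose. Between genotypes their medians were -0.15, -0.12, -0.23, -0.09 and -0.06, and of them only UQCRQ of complex III fell, by 0.99 ± 0.15 (adjusted p = 0.00910). A list of 17 genes of mitochondrial mass, such as citrate synthase and the outer membrane channels, which shares CYC1 with complex III, had a median of -0.32 with age, with 1 fallen, and -0.05 between genotypes. No difference between these lists and complex I was tested.

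**Figure D4:**
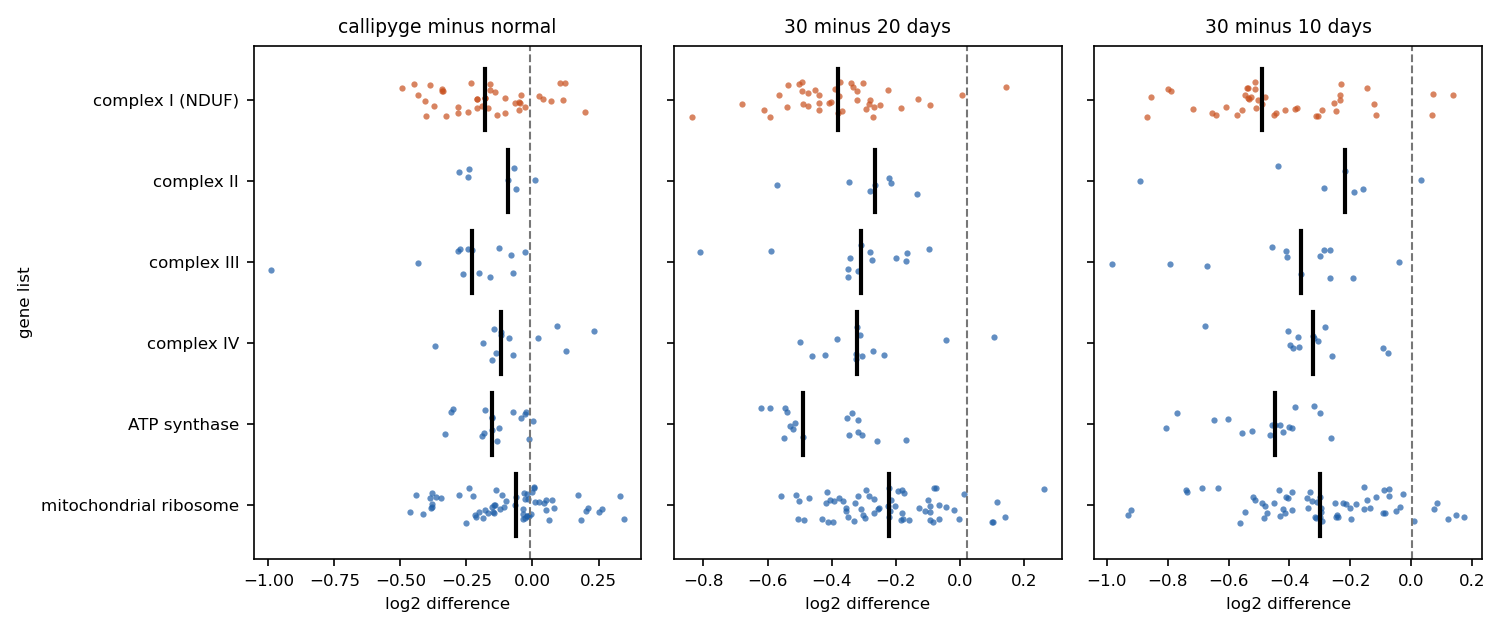
Log2 difference of every tested gene (points) of complex I, complexes II to IV, ATP synthase and the mitochondrial ribosome between genotypes (left), from 20 to 30 days (middle) and from 10 to 30 days (right). Thick bars are list medians and dashed lines the median of all tested probe sets; the complex I medians are -0.18, -0.38 and -0.49.

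Markers of skeletal muscle, of slow fibres and of other cells were read in the same lambs. Their levels are given here beside the NDUF results. From 10 to 30 days all 10 measured genes of skeletal muscle, many of them fast fibre genes, lay below 0, with a median of -0.16 and none called. Their summed signal ran from 87589 to 95901 at 10 days and from 71826 to 91356 at 30 days. The 10 slow fibre genes had a median of -0.01, with 5 below 0, and sums of 31930 to 40750 and of 34706 to 44188. Endothelial and smooth muscle genes lay above 0 in 9 of 9 (median 0.19), immune genes in 5 of 5 (0.21), adipocyte genes in 3 of 4 (0.27) and erythroid genes in 2 of 3 (0.15). Matrix genes lay below 0 in 7 of 8 (-0.18) and nerve genes in 3 of 3 (-0.08). None of these genes was called with age. From 10 to 30 days the summed signal went from 3257 to 4164 to a range of 3076 to 5696 for the endothelial and smooth muscle list and from 149 to 220 to 227 to 292 for the immune list. It went from 192 to 372 to 253 to 431 for the adipocyte list, and it was 169 to 334 and then 174 to 322 for the erythroid list. The matrix list had sums of 10802 to 16055 and of 9492 to 15136, and the nerve list 120 to 205 and 143 to 173. Between genotypes all 10 slow fibre genes lay below 0 (median -0.22), LDHB, a lactate dehydrogenase subunit of oxidative muscle, was the gene called, at -0.89 ± 0.16 and chosen after its values were seen, and the sums ran from 30260 to 39353 in callipyge and from 34706 to 48791 in normal lambs. The 10 skeletal muscle genes all lay above 0 (median 0.10), with sums of 81261 to 99729 and of 71826 to 91356. Many genes of this list are those of fast fibres, such as MYH1, TNNT3, TNNI2, TNNC2, ATP2A1 and ACTN3. ACTN3 lay furthest from 0, at 0.30 ± 0.08 (limma adjusted p = 0.138). The other lists had genotype medians of -0.54 (erythroid, 3 genes), -0.19 (adipocyte, 4), -0.18 (endothelial and smooth muscle, 9), -0.14 (nerve, 3), -0.09 (matrix, 8) and 0.03 (immune, 5), with none called. At single ages and for the interaction no marker gene was called. The endothelial and smooth muscle genes lay below 0 in 9 of 9 at 30 days (median -0.53, 5 with an unadjusted p under 0.05) and in 9 of 9 for the interaction (median -0.74, 2 with such a p), with medians of 0.03 at 10 days and 0.01 at 20 days. The slow fibre genes lay below 0 in 9 of 10 at 20 days (median -0.57, 5 with such a p), with medians of -0.13 at 10 days, -0.21 at 30 days and 0.03 for the interaction. For the interaction the erythroid genes had a median of -0.79 (2 of 3 below 0) and the matrix genes 0.16 (2 of 8). The skeletal muscle, immune, adipocyte and nerve genes had interaction medians between -0.06 and 0.03. The immune markers PTPRC, CD3D, CD79A and TYROBP, the adipocyte markers ADIPOQ, LEP and CIDEC the erythroid ALAS2, SLC4A1, HBM and AHSP, the endothelial KDR and the nerve marker NEFL were too dim to test. The part of fibre type or of other cells in the NDUF differences was not tested.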

How the data were processed

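Gene expression was measured in loin muscle of 12 lambs, 1 array each. The deposited values are signal intensities that the authors computed with MAS5 in GCOS, per the submitters' processing notes; versions and scaling target are not given in the sources used here. Depth has no meaning for arrays, and 2 lambs per group limit the precision. Since the trimmed means (2% off each end) differed by more than 1.5 times between arrays, each array was scaled to one trimmed mean, and log2(value + 16) was used. The 12008 of 24016 non-control probe sets at or above the median brightness were fitted with limma 3.58.1 in R 4.3.3 (means of 6 groups, empirical Bayes with trend), with Benjamini-Hochberg adjustment at 0.05. Each NDUF gene was represented by its brightest probe set. Up to 4 genes per contrast with the smallest p, 8 from 10 to 30 days, are described lamb by lamb or by value; other genes that passed, the brightest and dimmest, and the extremes of each role between genotypes are named with their values. LDHB, UQCRQ, ACTN3 and CKM were named after their values were seen. Members and lists were chosen with earlier results of these data known. Exact permutation tests relabelled genotypes within age. The code was tested on simulated data. Same-numbered lambs did not deviate together (15 correlations between groups, -0.06 to 0.11), so numbers were not taken as pairs. Scaling, filter, pseudocount, test, probe set choice and single lambs were varied.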

Additional observations from a re-analysis of the deposited data

Results flagged for a closer look

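Of 95 sets of lambs checked, 4 held a lamb far from the others, where chance gives about 1 in 20. For NDUFB9, normal 20 day replicate 2 stood at 10.97 and the other lambs of 20 days at 10.55 to 10.55, a gap of 0.990 of the whole range against a critical value of 0.829. For NDUFB7 the same lamb stood at 10.17 and the others at 9.87 to 9.89, a gap of 0.941 of the range. For NDUFB10, callipyge 30 day replicate 2 stood at 10.37 and the other 30 day lambs at 10.74 to 10.78 (gap 0.905). For NDUFAF8, callipyge 10 day replicate 1 stood at 5.91 and the other 10 day lambs at 7.18 to 7.35 (gap 0.882).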

How the results depend on the processing

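The number of NDUF genes called from 10 to 30 days was 13 as reported, 8 with no filter on dim probe sets, 1 with median centring, and 0 with no scaling, with ordinary least squares or without both 30 day lambs numbered 2; with 1 lamb left out it ran from 0 to 15. It was 9 with quantile normalization, 15 with robust empirical Bayes, 17 with the mean of all probe sets of a gene, 18 with the filter at the 75th percentile and 19 at an adjusted p of 0.10. With the replicate number as a block it was 14, and the block changed no other count of calls. At an adjusted p of 0.10 the count was 1 from 20 to 30 days and 1 between genotypes averaged over ages. The averaged genotype count was also 1 with no scaling and ran from 0 to 1 with 1 lamb left out. With no scaling the median difference was 0.074 from 10 to 20 days, -0.20 from 10 to 30 days, -0.23 from 20 to 30 days, -0.58 between genotypes at 10 days, -0.53 at 20 days and -0.38 averaged, and 0.48 for the interaction. Median centring gave -0.36 from 10 to 30 days and -0.38 between genotypes at 20 days, and quantile normalization -0.38 from 10 to 30 days. The interaction median was 0.45 without both 30 day lambs numbered 2 and ran from 0.20 to 0.50 with 1 lamb left out, and the genotype median at 10 days from -0.48 to -0.19. Of the other counts of calls and medians over the genes, 384 changed little. Those counts equalled or lay near the reported count. Those medians moved by less than 0.105, the spread between lambs of a group. The cause of these shifts was not tested. Calls over all probe sets are not given for these settings, except from 10 to 30 days without both 30 day lambs numbered 2. A count of 0 by ordinary least squares therefore cannot be set against its share over all probe sets.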
